A study of Oryza sativa Indica Group with 6 samples.

Results

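The probes described here carry names around the routes from pyruvate to ethanol, lactate and alanine that plants use when oxygen runs short. They were the 8 of 21495 gene probes whose gene name in the array files is that of pyruvate decarboxylase 1 (PDC1, AK100678), pyruvate decarboxylase 2 (PDC2, AK101594), alcohol dehydrogenase 1 (ADH1, AK073964 and AK069330), alcohol dehydrogenase 2 (ADH2, AK102799), lactate dehydrogenase (LDH, AK103257), an aldehyde dehydrogenase described by the Arabidopsis gene ALDH3 (AK104746) or a putative alanine aminotransferase described by an Arabidopsis gene (AK067732). The 8 probes stand for 7 genes, since both ADH1 probes carry the same description. Of these, the aldehyde dehydrogenase makes none of the products named above. AK067732 is not taken as an enzyme of fermentation, as given below. All 8 passed the filter on dim probes, and no spot of theirs was saturated or marked by the scanner software.

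Leaf RNA of FR13A, the submergence-tolerant rice genotype, and of IR24, the susceptible genotype, shared each of 6 dual-colour arrays. Plants from growth chambers were untreated and sampled at day 14 after sowing (constitutive), or were put under water inside transparent polythene bags on day 14 for 15 min or for 24 h, the latter sampled on day 15. Each of these 3 groups had 2 replicate arrays, with IR24 in Cy3 on replicate 1 and in Cy5 on replicate 2. The labels name no separate plants or pools behind a replicate, so p-values measure only the spread between these samples, which may be technical. No unsubmerged plants of day 15 were among the groups, so 24 h under water cannot be told apart from a day of age or from the hour of sampling.

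In plant cells short of oxygen, pyruvate decarboxylase turns pyruvate into acetaldehyde, and alcohol dehydrogenase reduces the acetaldehyde to ethanol, which returns the NAD+ that glycolysis needs. Lactate dehydrogenase regenerates NAD+ by reducing pyruvate to lactate, and alanine aminotransferase moves an amino group onto pyruvate to give alanine. Aldehyde dehydrogenases oxidise aldehydes, and those that act on acetaldehyde make acetate, a reaction known from plants returned to air.

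Between 81.8% and 95.3% of gene probes were well above background in a channel, and the median probe was 3.05 to 11.4 times as bright as the median background. Of 34 leaf marker probes (Rubisco small subunit, chlorophyll a/b-binding and photosystem proteins), 32 to 34 were well above background in every channel. The summed log2 level of the 32 leaf markers in the within-genotype fit ranged from 18.8 to 20.2. Of 29 seed, root and pollen marker probes, 16 to 25 were well above background. The summed level of the 24 of these in the fit was 12.9 to 13.1 in constitutive and 13.3 to 13.7 in 24 h IR24, and 12.7 (both arrays) and 13.1 to 13.4 in FR13A. The number of arrays limits the precision throughout.

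Levels below are log2 normalised intensities of a channel, which can be compared between samples for the same probe but not between probes. Differences are log2 values with their standard error (SE) from limma, and p-values are two-sided limma values, adjusted by Benjamini-Hochberg over every probe that a comparison tested. A probe was called where the adjusted p was under 0.05. In leaf RNA, fewer cells of a type and less RNA per cell cannot be told apart, and a sequence difference between FR13A and IR24 under a probe could also shift a ratio.

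**Figure D1:**
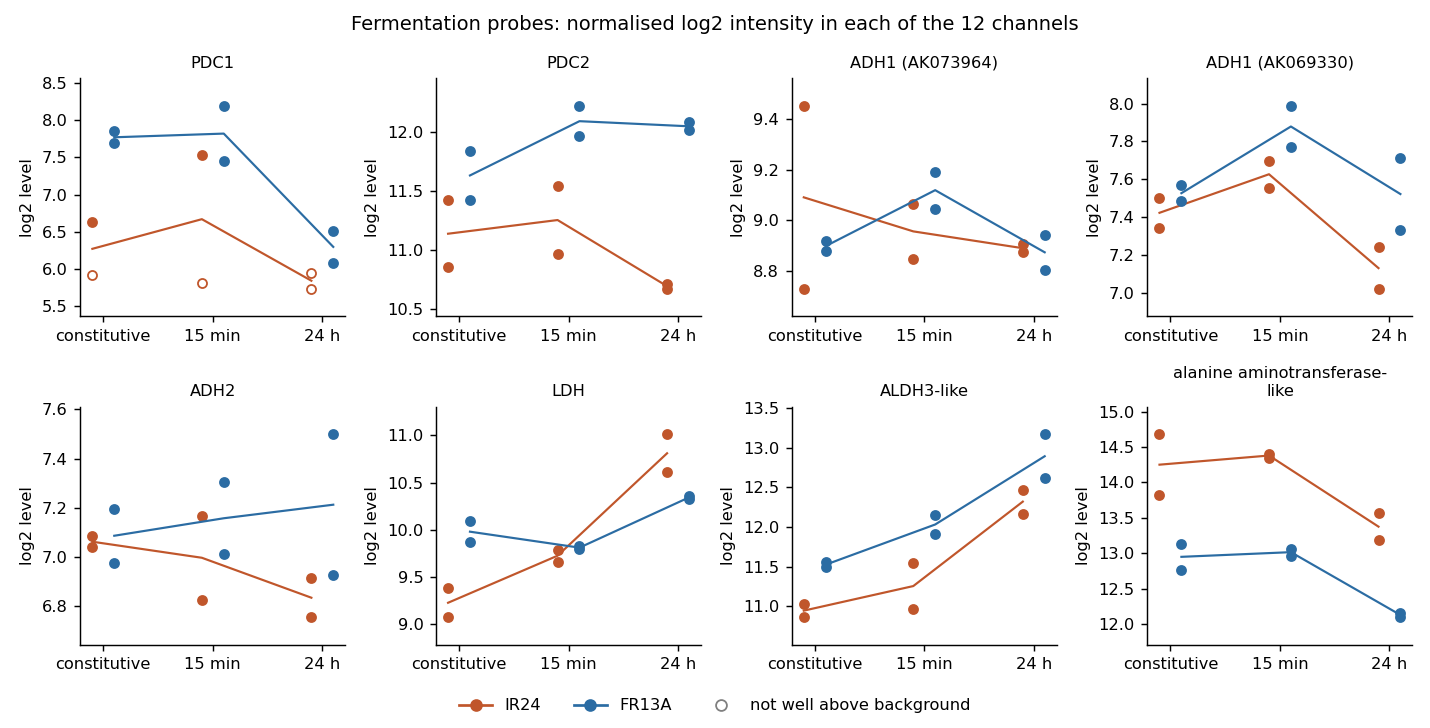
Log2 normalised intensity (y axis, its own range in each panel) of the 8 probes in IR24 and FR13A, by time under water (x axis). Each point is 1 channel (n = 2 per genotype and time), lines join the means, and open points were not well above background, which occurred only for PDC1 in IR24; LDH and the ALDH3-like probe end highest at 24 h, and the alanine aminotransferase-like probe is lower in FR13A in every group.

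FR13A and IR24 differed in 4 of the 8 probes over all times. PDC1, PDC2 and the ALDH3-like probe were higher in FR13A, and the alanine aminotransferase-like probe was lower. That is 4 of 8 against 20.2% of all probes tested. Called at a single time were 2 of 8 in constitutive leaves (PDC1 and the alanine aminotransferase-like probe, against 6.15% of all probes), 2 of 8 at 15 min (PDC2 and the alanine aminotransferase-like probe, against 5.34%) and 2 of 8 at 24 h (the same 2 probes as at 15 min, against 7.62%). The median difference of the 8 probes over all times was 0.22, beside a median over all probes of -0.0037.

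**Figure D2:**
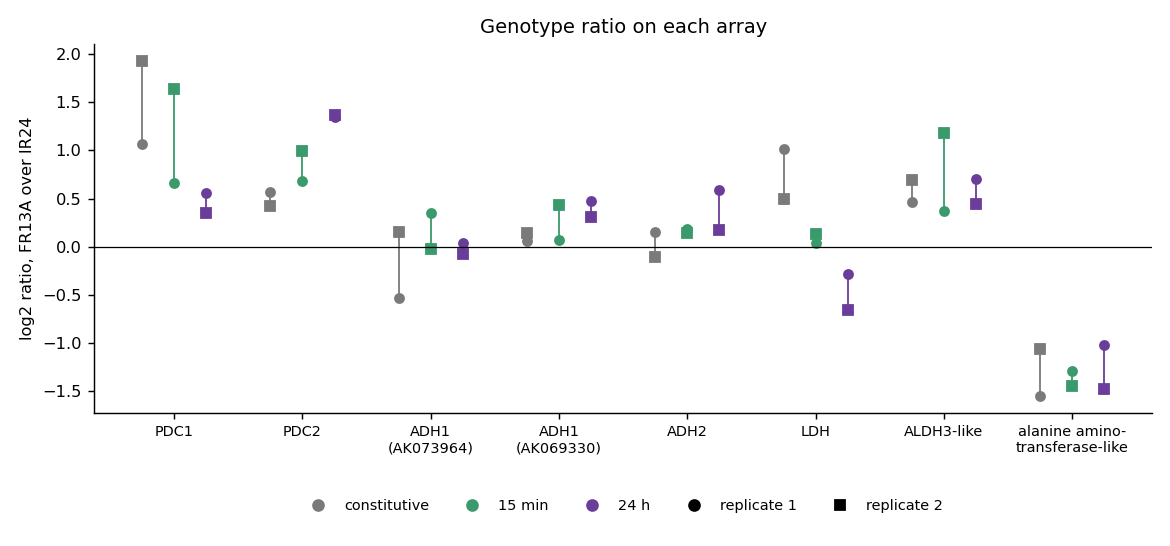
Log2 ratio of FR13A over IR24 (y axis) for each probe (x axis) on each of the 6 arrays, with colours for time, circles for replicate 1 and squares for replicate 2, joined by a line. PDC2 ratios run from 0.42 and 0.57 in constitutive leaves to 1.34 and 1.37 at 24 h, LDH ratios cross 0, and all 6 alanine aminotransferase-like ratios lie below -1.

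PDC2, a decarboxylase that commits pyruvate to the ethanol branch, was higher in FR13A on every array. Its log2 level in IR24 was 10.86 and 11.42 in constitutive replicates 1 and 2, 11.55 and 10.97 at 15 min, and 10.67 and 10.72 at 24 h. In FR13A it was 11.42 and 11.84 in constitutive leaves, 12.22 and 11.96 at 15 min, and 12.02 and 12.09 at 24 h. The genotypes did not overlap at 15 min or at 24 h, and in constitutive leaves the lower FR13A value equalled the higher IR24 value to 2 decimals. On the arrays, the ratio of FR13A over IR24 was 0.57 and 0.42 in constitutive leaves, 0.678 and 0.997 at 15 min, and 1.34 and 1.37 at 24 h. Within each array, where both genotypes lie in the same spot, PDC2 was thus higher in FR13A in 6 of 6 cases.

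Over all times the PDC2 difference was 0.90 (SE 0.06, n = 6 arrays, limma adjusted p = 0.000574), which is 1.86-fold. At 24 h it was 1.35 (SE 0.11, n = 2 arrays, limma adjusted p = 0.00191), or 2.56-fold, and at 15 min it was 0.84 (SE 0.11, limma adjusted p = 0.0149), or 1.79-fold. In constitutive leaves the difference of 0.49 (95% interval 0.23 to 0.76) missed the threshold with a limma adjusted p of 0.0608. The ratio was larger at 24 h than in constitutive leaves by 0.86 (95% interval 0.49 to 1.24, limma adjusted p = 0.213), which was not called. Within IR24 the 24 h level differed from the constitutive level by -0.44 (limma adjusted p = 0.292), and within FR13A by 0.42 (limma adjusted p = 0.307). Neither change was called, and their 95% intervals ran from -0.94 to 0.05 in IR24 and from -0.07 to 0.91 in FR13A. The call at 15 min was lost without replicate 2 of that group (0.68, adjusted p = 0.115) and with scan day as a term (0.84, adjusted p = 0.0504, AK101594).

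PDC1, which catalyses the same step, was higher in FR13A on every array, and in IR24 it lay at the edge of detection. Its FR13A level was 7.69 and 7.85 in constitutive replicates 1 and 2, 8.19 and 7.45 at 15 min, and 6.51 and 6.08 at 24 h. All 6 FR13A channels were well above background. The IR24 level was 6.63 and 5.92 in constitutive leaves, 7.53 and 5.81 at 15 min, and 5.95 and 5.73 at 24 h. Only 2 of the 6 IR24 channels were well above background, the Cy3 channels of replicate 1 in the constitutive and 15 min groups. At 15 min the higher IR24 value exceeded the lower FR13A value, so the genotypes overlapped there, while they did not in constitutive leaves or at 24 h.

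The array ratios of PDC1 were 1.07 and 1.93 in constitutive leaves, 0.67 and 1.63 at 15 min, and 0.56 and 0.35 at 24 h. Over all times the measured difference for AK100678 was 1.03 (SE 0.17, n = 6 arrays, limma adjusted p = 0.0107), with IR24 well above background on 2 of 6 arrays. In constitutive leaves it was 1.50 (SE 0.29, n = 2 arrays, limma adjusted p = 0.0441), with IR24 well above background on 1 of 2 arrays. No fold is given for either, since IR24 channels not well above background enter both. At 15 min it was 1.15 (limma adjusted p = 0.0962), which was not called. At 24 h no IR24 channel was well above background. The measured difference there was 0.45, and its 95% interval of -0.26 to 1.17 includes no difference. The limma test did not call it (adjusted p = 0.454), and no fold or bound is given.

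**Figure D3:**
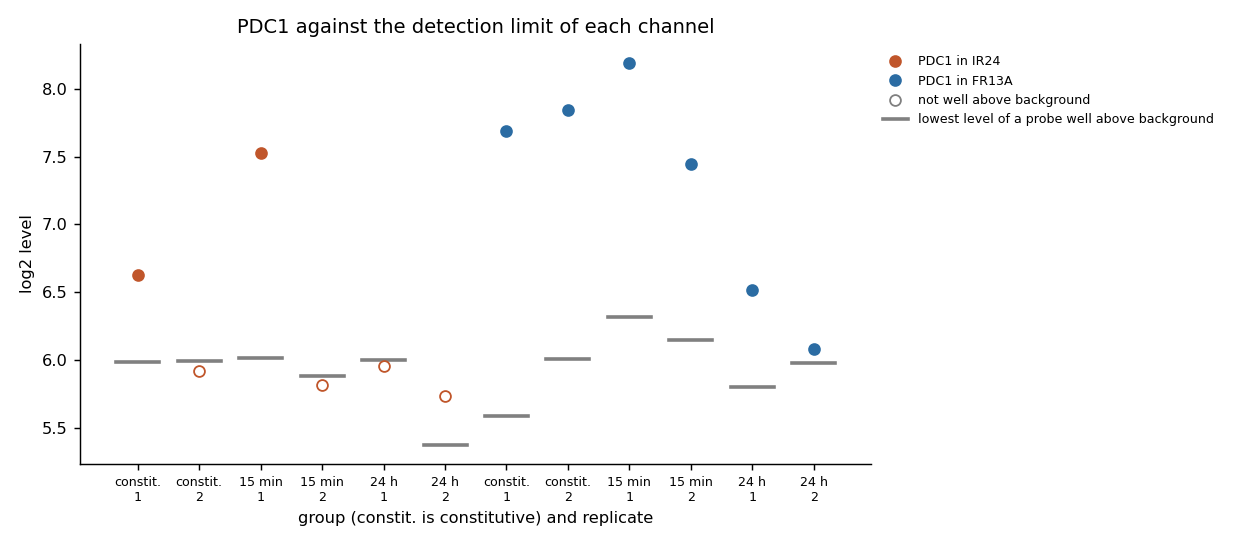
Log2 level of PDC1 (y axis) in each channel by group and replicate (x axis), IR24 on the left and FR13A on the right. Grey bars mark the lowest level of any probe well above background in that channel, and open points are not well above background, as for 4 of 6 IR24 channels.

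Within FR13A the 2 PDC1 values at 24 h lay below all 4 earlier FR13A values. The level at 24 h differed from the constitutive level by -1.47 (SE 0.47, 95% interval -2.53 to -0.41, limma adjusted p = 0.0858) and from the 15 min level by -1.52 (SE 0.47, limma adjusted p = 0.0718). Neither passed the threshold in the fit of all arrays. In FR13A the first was called without either 15 min array (-1.52 and -1.50, adjusted p = 0.0109 and 0.0115) and the second without 15 min replicate 2 (-1.93, adjusted p = 0.013). In IR24 no fold between times can be given, since each group held a channel not well above background. The tests of IR24 at 24 h against constitutive leaves and 15 min gave adjusted p of 0.712 and 0.34. The measured change of AK100678 in IR24 from 15 min to 24 h ran from -1.72 to -0.0033 with an array left out, and was called without 15 min replicate 2 (-1.72, adjusted p = 0.0199), where replicate 1 alone stands for 15 min. The change of the PDC1 ratio from constitutive leaves to 24 h was not called (limma adjusted p = 0.697), and its size is not given because of the same channels.

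The size of the PDC1 difference moved with the processing. From the processed signals of the scanner software, the constitutive difference for AK100678 was 3.21 (adjusted p = 0.074) and the difference over all times up to 2.90. The constitutive call was also lost with scan day as a term (1.08, adjusted p = 0.157) and with no filter on dim probes (1.50, adjusted p = 0.0525), without either constitutive array (1.93 and 1.07, adjusted p = 0.14 and 0.248), and without either 24 h array (1.50, adjusted p = 0.0858).

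ADH1, the enzyme that finishes the ethanol branch and a classic gene of the plant response to low oxygen, showed no called difference on either probe. For AK073964 the level was 9.45 and 8.73 in constitutive IR24, 8.85 and 9.06 at 15 min, and 8.90 and 8.87 at 24 h, while FR13A stood at 8.92 and 8.88 in constitutive leaves, 9.19 and 9.04 at 15 min, and 8.94 and 8.80 at 24 h. All groups that neighbour each other in level overlapped, and the widest pair of replicates, 0.72 apart, was constitutive IR24. The difference over all times was -0.02 (95% interval -0.28 to 0.25, limma adjusted p = 0.94), and FR13A was higher on 3 of 6 arrays. Between constitutive leaves and 24 h this probe differed by -0.20 in IR24 (95% interval -0.73 to 0.32) and by -0.02 in FR13A (95% interval -0.55 to 0.50).

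For AK069330 the level in IR24 was 7.50 and 7.34 in constitutive leaves, 7.70 and 7.55 at 15 min, and 7.24 and 7.02 at 24 h. FR13A values were 7.57 and 7.49, then 7.77 and 7.99, then 7.71 and 7.33. The ratio was above 0 on 6 of 6 arrays, from 0.06 to 0.47. Over all times the difference of 0.25 (SE 0.07, 95% interval 0.08 to 0.41) had a limma adjusted p of 0.0515. It was called without replicate 1 at 15 min (0.31, adjusted p = 0.0374) and from the processed signals (0.38, adjusted p = 0.0409). At 24 h it differed from the constitutive level by -0.29 in IR24 (95% interval -0.66 to 0.08) and by -0.0046 in FR13A (95% interval -0.38 to 0.37).

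The ADH1 probes, although described alike, did not give the same ratios. AK073964 minus AK069330 ran from -0.60 on constitutive replicate 1 to 0.27 on 15 min replicate 1. Across the 12 channels their levels correlated at 0.36 (Pearson), a description over channels that share arrays. Which of the 2 follows ADH1 transcript, or whether they see different copies, was not tested.

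ADH2, a further alcohol dehydrogenase of the same reaction, was also uncalled in all 13 comparisons. Its level was 7.04 and 7.08 in constitutive IR24, 6.83 and 7.17 at 15 min, and 6.91 and 6.76 at 24 h. FR13A stood at 7.20 and 6.98, then 7.01 and 7.30, then 7.50 and 6.93. All neighbouring groups in the order of levels overlapped, with 24 h FR13A at the top and 24 h IR24 at the bottom. FR13A was higher on 5 of 6 arrays, by 0.19 over all times (95% interval 0.0015 to 0.37, limma adjusted p = 0.148) and by 0.38 at 24 h (limma adjusted p = 0.172). At 24 h ADH2 differed from its constitutive level by -0.23 in IR24 (95% interval -0.68 to 0.23) and by 0.13 in FR13A (95% interval -0.33 to 0.58).

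LDH, the enzyme of the lactate branch, rose in IR24 under water on the member probe AK103257. Its IR24 level was 9.08 and 9.38 in constitutive replicates 1 and 2, 9.79 and 9.66 at 15 min, and 10.61 and 11.01 at 24 h. In FR13A it was 10.09 and 9.87 in constitutive leaves, 9.82 and 9.80 at 15 min, and 10.33 and 10.36 at 24 h. The 3 IR24 groups did not overlap. In FR13A the 24 h values lay above all 4 earlier values, by a smaller margin. In the order of the 6 group means, constitutive IR24 was lowest and 24 h IR24 highest, and the 15 min means of IR24 and FR13A, 0.09 apart, did not differ beyond their spread (SD 0.09 and 0.02, n = 2 each).

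In IR24 the LDH level at 24 h exceeded the constitutive level by 1.58 (SE 0.19, n = 2 arrays per group, limma adjusted p = 0.0011), or 3.00-fold, and the 15 min level by 1.09 (SE 0.19, limma adjusted p = 0.00707), or 2.12-fold. In FR13A the corresponding differences were 0.36 (95% interval -0.07 to 0.80, limma adjusted p = 0.315) and 0.53 (95% interval 0.10 to 0.97, limma adjusted p = 0.117), neither of them called. The ratio of FR13A over IR24 on the arrays was 1.01 and 0.49 in constitutive leaves, 0.04 and 0.14 at 15 min, and -0.28 and -0.66 at 24 h.

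LDH was therefore higher in FR13A on both constitutive arrays and higher in IR24 on both 24 h arrays. The constitutive difference was 0.75 (SE 0.16, 95% interval 0.36 to 1.14, limma adjusted p = 0.0551; 0.81 and adjusted p = 0.0486 from Agilent's processed signals), the 15 min difference 0.09 (limma adjusted p = 0.88) and the 24 h difference -0.47 (95% interval -0.86 to -0.08, limma adjusted p = 0.165). The test of the change in ratio from constitutive leaves to 24 h gave -1.22 (SE 0.22, 95% interval -1.77 to -0.67, limma adjusted p = 0.233). It was not called, so a difference between the genotypes in the LDH change is not established over all probes. Other probes with the same lactate dehydrogenase description, AK106504 and AK106891, did not show this crossing of the ratio. They differed between genotypes by 0.05 and -0.03 in constitutive leaves and by -0.03 and -0.07 at 24 h, none of them called. Neither was called higher in IR24 from 15 min to 24 h, so that called rise rests on AK103257 alone. Their IR24 changes from constitutive leaves to 24 h are not given here. For AK103257, on the only scan day that held both groups, the IR24 change was 1.94 and the FR13A change 0.27. With scan day as a term they were 1.64 (adjusted p = 0.007) and 0.42 (adjusted p = 0.299).

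**Figure D4:**
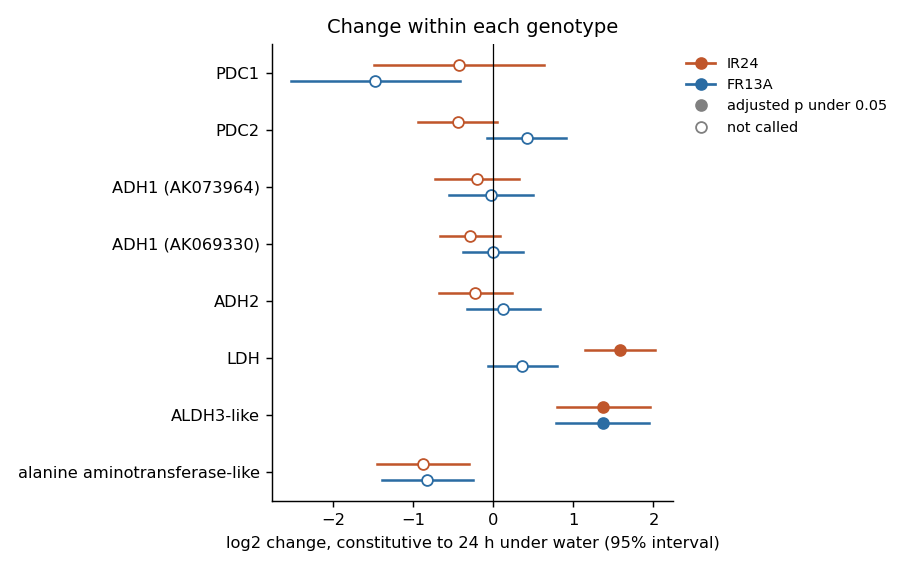
Log2 change from constitutive leaves to 24 h under water (x axis) within IR24 and FR13A for each probe (y axis), with the 95% interval of the separate-channel fit (n = 2 channels per group). Filled points had an adjusted p under 0.05: LDH in IR24 at 1.58 and the ALDH3-like probe in IR24 and FR13A at 1.37.

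The ALDH3-like probe, described by an Arabidopsis aldehyde dehydrogenase, rose at 24 h in both genotypes. Its IR24 level was 11.03 and 10.86 in constitutive replicates 1 and 2, 11.54 and 10.97 at 15 min, and 12.47 and 12.17 at 24 h. FR13A values were 11.49 and 11.56, then 11.92 and 12.15, then 13.17 and 12.61. The 24 h values lay above every earlier value of the same genotype. The rise from constitutive leaves was 1.37 in IR24 (SE 0.26, limma adjusted p = 0.0101), or 2.59-fold, and 1.37 in FR13A (SE 0.26, limma adjusted p = 0.00985), or 2.58-fold. The ratio of the genotypes changed by -0.0073 over the same interval (95% interval -0.71 to 0.69, limma adjusted p = 0.999).

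From 15 min to 24 h the ALDH3-like probe rose in IR24 by 1.06 (SE 0.26, limma adjusted p = 0.0306), and in FR13A the difference of 0.86 (95% interval 0.28 to 1.44) had a limma adjusted p of 0.0654. The FR13A difference of AK104746 was called with scan day as a term (0.86, adjusted p = 0.0415), with marked spots kept (0.98, adjusted p = 0.0395) and without 15 min replicate 2 (0.98, adjusted p = 0.0493). FR13A was higher on 6 of 6 arrays, with ratios of 0.47 and 0.69 in constitutive leaves, 0.37 and 1.18 at 15 min, and 0.70 and 0.45 at 24 h. Over all times the genotypes differed by 0.64 (SE 0.12, n = 6 arrays, limma adjusted p = 0.0151), or 1.56-fold. At single times the differences of 0.57 to 0.78 were not called (limma adjusted p = 0.103 to 0.183), though that at 15 min was called without 15 min replicate 1 (1.18, adjusted p = 0.0329). On the shared scan day the changes of AK104746 from constitutive leaves to 24 h were 1.14 in IR24 and 1.12 in FR13A. Leaving out either constitutive array or either 24 h array ended the IR24 call from constitutive leaves to 24 h (1.22 to 1.53, adjusted p = 0.0553 to 0.128). In FR13A either constitutive array or 24 h replicate 1 did so (1.09 to 1.38, adjusted p = 0.0926 to 0.146). The genotype call was lost without either constitutive array or 24 h replicate 1 (0.60 to 0.68, adjusted p = 0.055 to 0.069).

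In IR24 the call of the ALDH3-like probe (AK104746) from 15 min to 24 h was lost without any array except 15 min replicate 1 (0.78 to 1.22, adjusted p = 0.0763 to 0.237). That of LDH (AK103257) was lost without 24 h replicate 2 (0.88, adjusted p = 0.109). On the 2 scan days that held both groups, this change in IR24 was 0.82 and 1.35 for LDH and 0.93 and 1.20 for the ALDH3-like probe. The seed, root and pollen markers were also higher in sum at 24 h than in constitutive leaves in both genotypes, as given above, and their part in the 24 h changes was not tested.

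The alanine aminotransferase-like probe was lower in FR13A on every array. The Arabidopsis gene that describes it, At1g23310, is known for a peroxisomal glutamate:glyoxylate aminotransferase of photorespiration that also acts on alanine, so the probe is named here by its description and not as an enzyme of fermentation. Its IR24 level was 14.68 and 13.82 in constitutive replicates 1 and 2, 14.35 and 14.41 at 15 min, and 13.18 and 13.57 at 24 h. In FR13A it was 13.14 and 12.76, then 13.06 and 12.96, then 12.16 and 12.10. The genotypes did not overlap at any time, and in each genotype both 24 h values lay below all 4 earlier values.

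The ratio of this probe was -1.55 and -1.06 in constitutive leaves, -1.29 and -1.45 at 15 min, and -1.02 and -1.47 at 24 h. Over all times the difference was -1.31 (SE 0.09, n = 6 arrays, limma adjusted p = 0.00067), so IR24 was 2.47-fold higher. It was called at each time, at -1.30 in constitutive leaves (limma adjusted p = 0.0119), -1.37 at 15 min (limma adjusted p = 0.0119) and -1.25 at 24 h (limma adjusted p = 0.0104). From 15 min to 24 h the level fell in IR24 by 1.01 on the log2 scale (SE 0.25, limma adjusted p = 0.0361). In FR13A the difference of -0.89 had a limma adjusted p of 0.055. For AK067732 it was called with scan day as a term (-0.89, adjusted p = 0.0214) and without either constitutive array (-0.90, adjusted p = 0.0265). From constitutive leaves to 24 h the differences were -0.88 in IR24 (limma adjusted p = 0.0661) and -0.82 in FR13A (limma adjusted p = 0.0771), which were not called.

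With scan day as a term, the changes of AK067732 from constitutive leaves to 24 h were called, at -1.15 in IR24 (adjusted p = 0.0156) and -1.10 in FR13A (adjusted p = 0.0175). On the shared scan day they were -1.11 and -1.04. These results are not separate checks. Constitutive replicate 2 was alone on its scan day, so in both the constitutive level rests on replicate 1. Without constitutive replicate 2 the IR24 change was -1.31 (adjusted p = 0.0224). The IR24 call from 15 min to 24 h was lost without any of the 4 arrays of those groups (-1.20 to -0.80, adjusted p = 0.102 to 0.294), and on the 2 scan days that held both groups the change was -1.17 and -0.84. For AK067732 this call was also lost from Agilent's processed signals (adjusted p = 0.0511), with marked spots kept (adjusted p = 0.058) and with quantile normalisation of the single channels (adjusted p = 0.0658). The genotype call at single times was lost without either constitutive array (adjusted p = 0.141 and 0.0504), without 15 min replicate 2 (adjusted p = 0.0925) or without 24 h replicate 2 (adjusted p = 0.111) in the group concerned.

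Within IR24, 2 of 8 probes were called from constitutive leaves to 24 h (LDH and the ALDH3-like probe), against 8.93% of all probes tested. From 15 min to 24 h, 3 of 8 were called (these 2 and the alanine aminotransferase-like probe), against 9.95%. Within FR13A, 1 of 8 was called from constitutive leaves to 24 h (the ALDH3-like probe, against 10%) and 0 of 8 from 15 min to 24 h (against 11.1%). From 15 min to 24 h in FR13A, 4 of 8 had an unadjusted limma p under 0.05, beside 4994 of the 18907 probes tested. With scan day as a term, 2 of 8 were called in that last comparison, the ALDH3-like and alanine aminotransferase-like probes. Over all probes, the alternatives that kept every array, scan day among them, called 851 to 2243 there, beside 2097 in the main fit. The comparisons from constitutive leaves and from 15 min share the 24 h arrays, so they are not independent of each other.

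After 15 min under water no member was called in limma's fit. In IR24 the 8 differences from constitutive leaves ran from -0.13 to 0.50, where 2.1% of all probes were called. There 1 of 8 members, LDH, had an unadjusted limma p under 0.05, beside 1912 of the 18907 probes tested. In FR13A the 8 differences ran from -0.17 to 0.51, where 1.59% of all probes were called. There 0 of 8 members had an unadjusted limma p under 0.05, beside 2009 of the 18907 probes tested. The change of the genotype ratio between times was called for 0 of 8 members in each of its 3 comparisons. Over all probes the shares called there were 0% from constitutive leaves to 15 min, 0.108% from constitutive leaves to 24 h and 0.0838% from 15 min to 24 h. In the same order, 1, 3 and 1 of the 8 members had an unadjusted limma p under 0.05. Of all probes tested, 427 of 20311, 1413 of 20291 and 1158 of 20289 did.

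The array holds 40 further probes described as pyruvate decarboxylase, alcohol, lactate or aldehyde dehydrogenase, alanine aminotransferase or glutamate decarboxylase, of which 39 were kept and 34 were in the within-genotype fit. Between genotypes over all times, 5 were higher in FR13A and 4 lower, together 23.1% of 39, beside 20.2% of all probes tested. From constitutive leaves to 24 h, 2 rose and 4 fell in IR24 (17.6% of 34, beside 8.93% of all probes) and 2 rose and 6 fell in FR13A (23.5% of 34, beside 10%). The list's median change was -0.22 in IR24 and -0.12 in FR13A, beside medians over all probes of 0.0025 and -0.0011. The change of the genotype ratio was called for 0 of 39 in all 3 comparisons of limma's fit.

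Another pyruvate decarboxylase probe, described as rice RRJ2 (AK100501), also was higher in FR13A, by 0.47 over all times (SE 0.06, limma adjusted p = 0.00466) and by 0.65 in constitutive leaves (limma adjusted p = 0.0241). Its level in FR13A was 8.14 and 8.01 in constitutive leaves, 8.13 and 8.40 at 15 min, and 7.37 and 7.17 at 24 h. The FR13A level fell from 15 min to 24 h by 0.99 on the log2 scale (limma adjusted p = 0.00315). The IR24 level was also lower at 24 h, at 7.04 and 6.87, than at 15 min, at 7.82 and 7.79. Its ratio was above 0 on all 6 arrays, from 0.30 to 0.72. Other pyruvate decarboxylase probes were not called higher in FR13A. Over all times the difference was 0.17 for a probe like maize pdc2 (AK069905, limma adjusted p = 0.212). It was -0.11 for a probe like maize pdc3 (AK100433, limma adjusted p = 0.162). At 24 h the differences of AK069905 and AK100433 were -0.21 and -0.08, neither of them called.

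An alcohol dehydrogenase-like probe described by the Arabidopsis gene At5g42250 (AK067720) rose at 24 h in both genotypes. Its level went from 6.48 and 6.44 in constitutive IR24 to 8.29 and 8.23 at 24 h, and from 6.42 and 6.24 to 7.36 and 7.25 in FR13A. The rises were 1.80 (SE 0.16, limma adjusted p = 0.000206) and 0.97 (SE 0.16, limma adjusted p = 0.00492). At 24 h it was lower in FR13A, at -0.96 (limma adjusted p = 0.00763). A probe described as rice alanine aminotransferase itself (AK102488) was higher in FR13A, by 0.62 over all times (limma adjusted p = 0.0167), with all 5 of its array ratios above 0. At 24 h its ratio was 1.25 on 1 array, the other spot being marked, so that time has no replicate check. Over all times its direction was opposite to that of the alanine aminotransferase-like member. Of other probes with the same rice description, AK059063 was higher in FR13A by 0.45 over all times (limma adjusted p = 0.0465). AK107237 differed by -0.07 (limma adjusted p = 0.383) and was not called. Probes described by an alanine aminotransferase of P. miliaceum, AK107029 and AK060481, differed by 0.09 and 0.22 and were not called either.

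Glutamate decarboxylase makes the amino acid GABA from glutamate. The probe described as OsGAD1 (AK061977) fell from constitutive leaves to 24 h by 1.64 in IR24 (limma adjusted p = 0.001) and fell by 1.44 in FR13A (limma adjusted p = 0.00183) on the log2 scale. A probe described as OsGAD2 (AK071556) rose in IR24 after 15 min by 1.72 (limma adjusted p = 0.015), from 7.66 and 7.89 to 9.66 and 9.34. It then fell by 2.08 to 7.62 and 7.22 at 24 h (limma adjusted p = 0.00179). In FR13A it stood at 8.49 and 8.91, then 9.28 and 9.94, then 7.64 and 7.40. The drop there from 15 min to 24 h was -2.09 (limma adjusted p = 0.00185). Another probe with the OsGAD2 description, AK068340, was not among the 2 list probes called higher in IR24 after 15 min.

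Some probes that the word dehydrogenase brought into this list are not enzymes of ethanol fermentation. An allyl alcohol dehydrogenase-like probe (AK060453, described by a tobacco enzyme of allylic alcohols) fell by 2.04 in IR24 (limma adjusted p = 0.00298) and fell by 2.14 in FR13A (limma adjusted p = 0.00219) from constitutive leaves to 24 h. A probe like maize tasselseed 2 (AK100767), known in maize for a dehydrogenase of floral sex determination, fell by 1.33 in FR13A over that interval (limma adjusted p = 0.00357). In IR24 it rose by 0.96 after 15 min (limma adjusted p = 0.0496) and then fell by 1.64 to 24 h (limma adjusted p = 0.00111). Its IR24 level was 9.61 and 9.76 in constitutive leaves and 9.08 and 8.91 at 24 h.

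**Figure D5:**
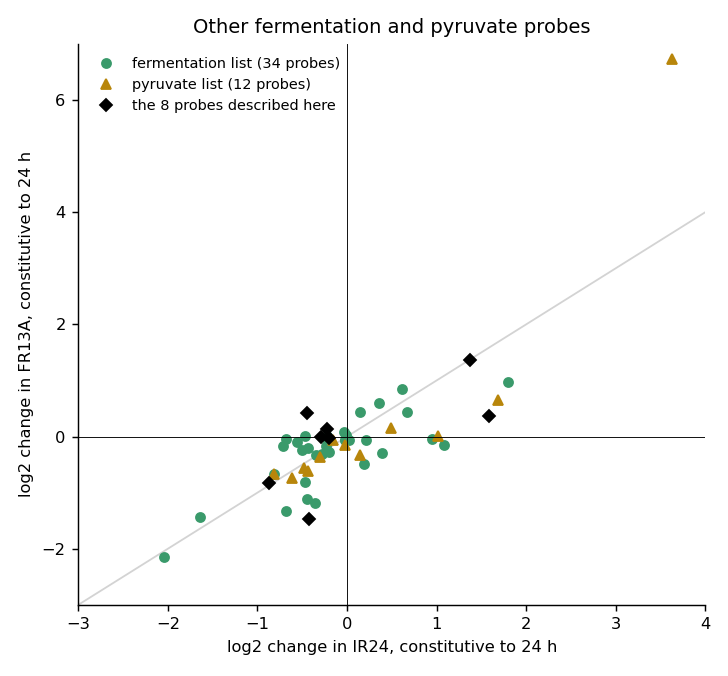
Log2 change from constitutive leaves to 24 h in IR24 (x axis) and FR13A (y axis) for the 34 other fermentation probes, the 12 pyruvate probes and the 8 probes described here; the grey line marks equal change. The point at 3.63 and 6.73 is pyruvate orthophosphate dikinase.

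The supply and other uses of pyruvate were followed with 12 probes described as pyruvate kinase, pyruvate dehydrogenase or pyruvate orthophosphate dikinase. From constitutive leaves to 24 h, 3 rose and 2 fell in IR24 (41.7% of 12, beside 8.93% of all probes) and 2 rose and 2 fell in FR13A (33.3%, beside 10%). Between genotypes over all times, 2 were higher in FR13A and 1 lower (25%, beside 20.2% of all probes). Their median change to 24 h was -0.09 in IR24 and -0.24 in FR13A.

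Cytosolic pyruvate orthophosphate dikinase (AK065739), which interconverts pyruvate and phosphoenolpyruvate, had the largest change of these 12 at 24 h in each genotype. Its level in IR24 was 7.03 and 6.34 in constitutive leaves, 7.15 and 6.72 at 15 min, and 10.50 and 10.12 at 24 h. In FR13A it was 7.21 and 7.14, then 7.30 and 8.04, then 14.27 and 13.53. The rise to 24 h was 3.63 in IR24 (SE 0.38, limma adjusted p = 0.000518) and 6.73 in FR13A (SE 0.38, limma adjusted p = 2.05e-05). At 24 h FR13A was higher by 3.59 (SE 0.30, limma adjusted p = 0.00235), with ratios of 3.78 and 3.41, whereas in constitutive leaves the ratios were 0.18 and 0.80. The change of that ratio did not pass the test over all probes, since 0 of these 12 probes were called in any change of ratio.

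The E1 alpha subunit of pyruvate dehydrogenase (AK069299), which feeds pyruvate into acetyl-CoA, rose by 1.68 in IR24 (limma adjusted p = 0.000179) and by 0.65 in FR13A (limma adjusted p = 0.0215). It was higher in FR13A in constitutive leaves by 0.52 (limma adjusted p = 0.0361) and at 15 min by 0.57 (limma adjusted p = 0.0297), and lower at 24 h, at -0.51 (limma adjusted p = 0.0319). Pyruvate dehydrogenase kinase 1 (AK069157), which inactivates that enzyme, rose by 1.02 in IR24 (limma adjusted p = 0.0124). The kinase probe was higher in FR13A in constitutive leaves by 0.82 (limma adjusted p = 0.0139) and at 15 min by 0.62 (limma adjusted p = 0.0346). At 24 h the difference of -0.19 was not called. Its FR13A level was 13.78 and 14.01 in constitutive leaves and 13.67 and 14.13 at 24 h. A pyruvate kinase-like probe (AK061668), of the enzyme that makes pyruvate in glycolysis, fell by 0.82 in IR24 (limma adjusted p = 0.0057) and fell by 0.66 in FR13A (limma adjusted p = 0.0149).

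Over the 12 channels, the described probes most like a member in level were found among 12183 probes well above background in every channel. For LDH they were a Tic55-like probe (AK105616, Pearson r = 0.94) and the pyruvate dehydrogenase E1 alpha probe named above (r = 0.93). For PDC1, itself well above background in only 2 of 6 IR24 channels, the closest was an arginine decarboxylase-like probe (AK058573, r = 0.97). For PDC2 it was a probe like Arabidopsis AT5g01740 (AK069499, r = 0.92), and for the ALDH3-like probe one described by a soybean gmsti mRNA (AK068486, r = 0.98). For the alanine aminotransferase-like probe it was a probe like Arabidopsis At5g27560 (AK101052, r = 0.98). The closest to ADH1 were a protein kinase-like probe for AK073964 (AK060641, r = 0.94) and a thylakoid ascorbate peroxidase-like probe for AK069330 (AK063934, r = 0.93). For ADH2 it was a further protein kinase-like probe (AK069094, r = 0.90).

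Among the members themselves, levels of LDH and the ALDH3-like probe correlated at 0.73, those of the ALDH3-like and alanine aminotransferase-like probes at -0.79, and those of PDC1 and PDC2 at 0.59. These correlations over 12 channels are descriptions, since pairs of channels share an array and its normalisation, and genotype and time are mixed in them. Those of PDC1 also include IR24 channels not well above background.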

How the data were processed

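Leaf RNA of FR13A and IR24 was measured on 6 dual-colour Agilent arrays, 2 per group, grouped by the labels. Per the file headers, each deposited scanner file holds spot and background intensity in both dyes, and log10 ratios of the red to the green dye. The software was Agilent Feature Extraction 8.1, per the submitters' processing notes, and per the file headers its processed signals subtract a fitted background surface and are dye-normalised. The deposited table of the series, also log10 ratios, correlated at 1 with the scanner ratios on replicate 1 and at -1 on replicate 2, and its columns had medians of 0, so the direction is FR13A over IR24; it served as an alternative after conversion to log2.

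Control spots (162 negative, 918 positive of 22575) were left out of the tests and marked spots set missing. Intensities were corrected with normexp (offset 50) and loess-normalised in limma 3.58.1 (statmod 1.5.0, R 4.3.3). The dim-probe filter kept 20315 probes, those well above background on 2 or more arrays in either channel. Genotype differences were fitted on log2 ratios with a mean per time (3 residual and 2.62 prior degrees of freedom). No array holds more than a single time, so changes within a genotype came from limma's separate-channel model after Aquantile normalisation (18907 probes without a missing channel, 1408 kept probes left out, intraspot correlation 0.498). With an array left out, that correlation was estimated by a closed formula in place of limma's. There were 13 comparisons. Scripts were tested on simulated data.

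Names come from the descriptions in the array files, and the RefSeq gene table matched 0 of the array's accessions, so no coordinates are given. Text names all members. Up to 4 called probes per list and comparison with the smallest p were selected, and the text names some of these but not all. It also names some other probes with the same kinds of description. Of the 2 described probes per member with the highest correlation of level, the text gives the closest for most members. The members and lists were chosen with earlier results of these data known. The member differences given singly, rather than as ranges, were chosen after their values were seen. The arrays were scanned on 3 days: constitutive replicate 2 alone, replicate 1 of both submerged groups together, and the other 3 arrays together. Alternatives were Agilent's processed signals, median centring, no dim-probe filter, marked spots kept, scan day or replicate number as a term, the deposited table, quantile normalisation of channels, and each array left out.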

Additional observations from a re-analysis of the deposited data

Results flagged for a closer look

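For PDC2 (AK101594), the values moved apart between genotypes from constitutive leaves to 24 h: both IR24 values at 24 h lay below the constitutive ones and both FR13A values lay above them. The difference between the changes was 0.86 on the log2 scale, and limma's test of the change in ratio gave an adjusted p of 0.213.

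For LDH (AK103257), the genotype ratio lay above 0 on both constitutive arrays and below 0 on both 24 h arrays, a change of -1.22 (adjusted p = 0.233). It also lay above 0 on both 15 min arrays, so that the change from 15 min to 24 h was -0.55 (adjusted p = 0.876). From constitutive leaves to 15 min, LDH was higher in both IR24 values and lower in both FR13A values, a difference of -0.67 between the changes (adjusted p = 1). None of these tests passed the threshold over all probes. The PDC2 and LDH patterns were picked among the 8 members by the order of 2 values a group. How many of all probes show such a pattern was not counted.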

How the results depend on the processing

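Calls were summed over the comparisons of a kind. Genotype differences of the 8 probes gave 10 calls, against 2 with median centring in place of loess, 7 to 12 with an array left out, and 8 to 11 otherwise. Changes within a genotype gave 6, against 3 with median centring, 10 with scan day as a term and 2 to 8 with an array left out. With median centring the genotype calls left were PDC2 and the alanine aminotransferase-like probe over all times, and those within a genotype were LDH in IR24 and the ALDH3-like probe in both from constitutive leaves to 24 h. The change in ratio gave 0 throughout. The fermentation list gave 44 calls, against 26 with median centring and 18 to 57 with an array left out, and the pyruvate list 27, against 10 and 14 to 22. With scan day as a term the lists gave 33 and 22.

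The replicate number is also the dye orientation. Deviations of same-numbered arrays correlated at 0.0996, 0.0596 and 0.402 over the 3 pairs of groups, so the numbers were not taken to pair the samples. The replicate block left the genotype calls at 10 and raised the within-genotype calls to 9: PDC1 in FR13A from constitutive leaves to 24 h (adjusted p = 0.042) and from 15 min (0.0352), and the ALDH3-like probe from 15 min (0.0477).

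Of 64 member differences given singly, 16 were called and 3 of these kept their call in all alternatives run: PDC2 and the alanine aminotransferase-like probe over all times, and LDH in IR24 from constitutive leaves to 24 h. None of the 16 changed sign. Over all 104 member differences, 65 of 1352 alternative values changed sign, none of them called in either fit. Among those given singly, median centring turned ADH2 in constitutive leaves to -0.059, ADH1 (AK073964) at 15 min to -0.018, LDH at 15 min to -0.15, the alanine aminotransferase-like change in ratio to 24 h to -0.11 and AK069330 in FR13A to 0.051. Scan day as a term turned LDH at 15 min to -0.025, AK073964 at 24 h to 0.059 and the ALDH3-like change in ratio to 0.24. With an array left out, AK073964 ran from -0.13 to 0.10 over all times, -0.54 to 0.15 in constitutive leaves, -0.019 to 0.35 at 15 min, -0.070 to 0.038 at 24 h, -0.17 to 0.52 in the change in ratio to 24 h, -0.56 to 0.16 in IR24 and -0.095 to 0.044 in FR13A. ADH2 ran from -0.11 to 0.15 in constitutive leaves and -0.16 to 0.41 in FR13A, AK069330 in FR13A from -0.19 to 0.18, and the change in ratio from -0.13 to 0.12 for the ALDH3-like and -0.19 to 0.30 for the alanine aminotransferase-like probe. The cause was not tested.

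Over all probes, genotype calls over all times numbered 4096 (1037 to 5276 in the alternatives). At single times the counts were 1249, 1084 and 1546 (as few as 178, 183 and 308), and to 24 h 1689 in IR24 and 1890 in FR13A (as few as 509 and 684). With an array left out, a group keeps 1 array, assumed to vary like the others. With scan day as a term, constitutive leaves likewise rest on replicate 1, since replicate 2 was alone on its day. PDC1 in IR24 is limited by background, with 2 of 6 channels well above it.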
